A study of Mus musculus with 36 samples.

Results

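The comparison described here set Lrig1 GL cells against Lgr5 GL cells at 8w pw1, the time point at which a first tail wound had healed and a second injury had not yet been made. It used 6 of the 36 libraries of the series, 3 from each population, chosen by the population and time point in their labels and not by any measured value. GL stands for genetically labelled. The cells came from mice in which the promoter of Lrig1 or of Lgr5 drives EGFP and the tamoxifen-inducible recombinase CreERT2, and in which CreERT2 switches on tdTomato from the Rosa26 locus. In both groups 1 topical dose of hydroxytamoxifen on the tail skin preceded a full-thickness wound, and tdTomato+ cells were sorted from a zone that held the wound bed and the distal hair follicles (HFs). The samples at 0w carried the same alleles and the same drug and were taken before any injury. A tdTomato+ cell at 8w was therefore labelled, or descended from a labelled cell, weeks earlier, and need not still have expressed the driver gene.

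Lrig1+ stem cells sit in the junctional zone of the upper HF and feed the infundibulum, the sebaceous duct and gland. Lgr5+ stem cells sit in the lower HF, in the bulge and hair germ, and feed the cycling part of the follicle. After a wound the progeny of both can enter the epidermis between follicles, so at 8w each labelled population can hold follicular and interfollicular cells. In bulk libraries fewer cells of a type and less RNA per cell cannot be told apart.

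Each population was deposited as a table of its own, so population and table, with whatever differed in handling, cannot be told apart in any value below. The counts of each library at 8w summed to 1755874 to 3365666 in Lrig1 GL and 2250348 to 5795482 in Lgr5 GL cells, within 765252 to 6960537 over the series. Gm12415, a non-coding RNA at 15.2 to 30.1% of the Lgr5 GL counts at 8w and at most 3 counts in an Lrig1 GL library, was removed before scaling. The comparison was made over the 18865 genes named in both tables, of which 16652 had enough counts to be tested. Values are CPM, counts scaled by TMM to a common library size, and 3 counts, taken as the floor of detection, were worth 1.20 to 1.98 CPM in a library of Lrig1 GL cells at 8w and 0.598 to 1.81 CPM in one of Lgr5 GL cells. The libraries carried no molecular identifiers, so this floor covers counting error only. The study used a separate mouse for each library, and the replicates at 8w are called a, b and c.

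The RNA itself differed between the groups at 8w. Mitochondrially encoded genes took 10.9 to 14.5% of the counts in Lrig1 GL and 3.11 to 4.75% in Lgr5 GL libraries, whereas at 0w the ranges were 3.16 to 5.39% and 2.80 to 5.74%. The mean GC content of the nuclear transcripts counted was 46.8 to 47.2% in Lrig1 GL and 50.2 to 50.6% in Lgr5 GL libraries at 8w, against 49.6 to 49.8% and 49.4 to 50.3% at 0w. For that reason the gene groups below are also given as fitted after the trend of counts with GC content had been removed from every library. Such a correction takes away any GC-related difference, technical or not.

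With all libraries and no GC correction, more genes differed between the populations at 8w than at the other time points. A gene was called when its adjusted p in edgeR's quasi-likelihood test was under 0.05 and its log2 difference was above 1 in size. At 8w 1963 genes were called, 11.8% of those tested, of which 1046 (6.28%) were higher in Lrig1 GL cells and 917 (5.51%) were higher in Lgr5 GL cells. At 0w 177 genes (1.06%) were higher in the Lrig1 GL population and 267 (1.6%) in Lgr5 GL cells. The totals at the time points in between were 599 at 1w, 298 at 2w and 584 at 4w, and 1060 genes were called at 1w pw2, one week after the second injury. By the unadjusted p of that test the gap was smaller, with 4752 genes under 0.05 at 8w, 2901 at 0w and 2840 to 3618 at the other time points. The number called at 8w fell to 873 without Lgr5 GL library b and to 963 without Lgr5 GL library a, and was 1031 to 1373 without one of the other 4 libraries. With the GC trend removed 346 genes (2.08%) were higher in the Lrig1 GL population and 199 (1.2%) in Lgr5 GL cells, and 437 of these were among the 1963. Calls at the other time points were not counted without a library or with the GC trend removed, so the order of the time points was not tested in those fits. The 3 libraries of one population all lay above the 3 of the other in 40.6% of the genes tested at 8w and in 98.1% of those called, so a called gene without overlap between the groups shows little beyond its call.

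**Figure D1:**
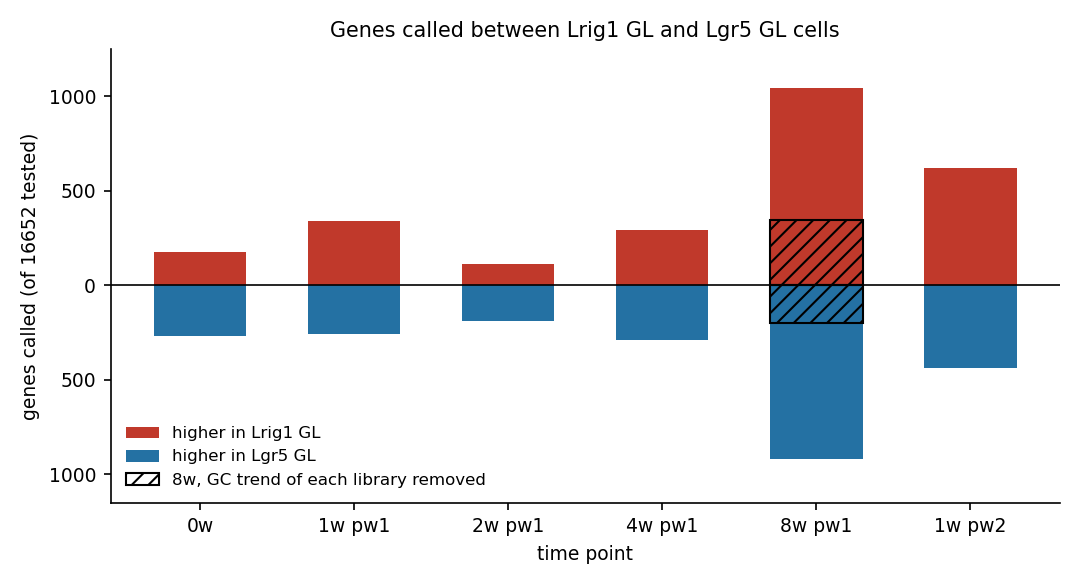
Number of genes called between Lrig1 GL and Lgr5 GL cells at each of the 6 time points, with 3 libraries a group; upward bars count genes higher in Lrig1 GL and downward bars genes higher in Lgr5 GL cells. The bars at 8w, 1046 and 917 genes, are the tallest in each direction, and those at 1w pw2, 622 and 438, come next.

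Most of the genes called at 8w were not called before injury. Of the 1046 genes higher in Lrig1 GL cells, 56 were also called that way at 0w, which is 5.35% of the list at 8w and 31.6% of the list at 0w, and 7 were called the opposite way. Of the 917 higher in Lgr5 GL cells, 97 were also called at 0w, 10.6% and 36.3% of the lists, and 2 the opposite way. By sign alone, called or not, 792 (75.7%) of the 1046 and 726 (79.2%) of the 917 had the same direction at 0w. At 1w pw2, 399 (38.1%) of the first and 248 (27.0%) of the second were called again in the same direction, and 97.6% and 95.2% had the same sign. In total 515 and 557 genes were called at 8w and at none of the other 5 time points in the same direction. Ly6d, which encodes a GPI-anchored surface protein of epithelial cells, was the 1 gene higher in Lrig1 GL cells at all 6 time points. The 18 genes higher in Lgr5 GL cells at all 6 included Il1rl1, Vim, Lgals1, Shisa2, Hmga2 and Col1a1.

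The driver genes themselves did not separate the groups. Lrig1, which encodes an inhibitor of ErbB receptors, stood at 81.7, 134 and 112 CPM in the Lrig1 GL libraries a, b and c and at 45.3, 74.2 and 101 CPM in the Lgr5 GL libraries, and the groups overlapped. Its log2 difference, Lrig1 GL minus Lgr5 GL, was 0.56 ± 0.35 (SE; adjusted p = 0.30), and with the GC trend removed it was 1.40 and passed the test. Lgr5, the R-spondin receptor that marks the lower HF, stood at 81.7, 113 and 191 CPM in Lrig1 GL and at 177, 524 and 236 CPM in Lgr5 GL libraries, a log2 difference of −1.28 ± 0.78 (adjusted p = 0.28). Before injury Lrig1 had been at 234 ± 35.0 CPM (SD, n = 3) in Lrig1 GL and 107 ± 53.9 CPM in Lgr5 GL cells, and Lgr5 at 147 ± 119 and 597 ± 134 CPM. Neither gene passed the test at 0w either.

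Genes of the bulge and hair germ were higher in Lgr5 GL cells. Of 20 tested, 7 passed the test, all higher in Lgr5 GL cells, and 13 did not pass, beside 5.51% of all genes called in that direction. Their median log2 difference was −1.33 at 8w and −1.27 at 0w, when 2 were called, beside −0.08 and −0.05 for all genes tested. Of the 7, 5 were still called with the GC trend removed, and 5 without Lrig1 GL library c or Lgr5 GL library b. In the fit without the GC trend Gas1, a growth arrest gene of the list, was called in the other direction.

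Krt15, a keratin of bulge stem cells (chr11:100131758-100135928, GRCm38), was at 1871, 2538 and 1656 CPM in Lrig1 GL libraries and at 27557, 23286 and 26224 CPM in the Lgr5 GL libraries. All Lgr5 GL libraries lay above all Lrig1 GL libraries, by 12.7-fold (log2 difference −3.67 ± 0.52, adjusted p = 1e-04). At 0w the means were 6220 ± 1812 and 22088 ± 3321 CPM, so the lower values at 8w were those of Lrig1 GL cells. Sox9, a transcription factor that maintains HF stem cells, was at 635, 741 and 438 CPM against 2027, 2824 and 2339 CPM (−1.99 ± 0.38, adjusted p = 0.0011). Tbx1, a T-box factor of the bulge, was at 40.4, 21.8 and 42.4 CPM against 207, 469 and 317 CPM (−3.24 ± 0.58, adjusted p = 0.00065). Neither gene overlapped between the groups, as was so for 98.1% of all genes called. Krt75, the keratin of the companion layer, was at 0, 6.59 and 0.581 CPM in Lrig1 GL and at 202, 233 and 144 CPM in Lgr5 GL libraries. Fgf18, a growth factor of the resting bulge, was at 0, 6.59 and 9.88 CPM against 172, 205 and 201 CPM. Both were under 10 CPM in every Lrig1 GL library, and their log2 differences were −6.46 ± 1.46 and −5.16 ± 1.29 (adjusted p = 0.0049 and 0.010). The transcription factors Nfatc1 and Tcf7l1 were also called higher in Lgr5 GL cells, but not after the GC trend was removed.

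Upper HF genes pointed the other way with fewer calls. Of 15 tested, 2 passed, both higher in Lrig1 GL cells, beside 6.28% of all genes called in that direction, and the list median was 0.95 at 8w and 1.43 at 0w, when 2 were called as well. Sostdc1, a secreted antagonist of BMP and Wnt signals, was at 520, 543 and 565 CPM in Lrig1 GL and at 205, 165 and 235 CPM in Lgr5 GL libraries (1.43 ± 0.39, adjusted p = 0.017). Gata6, a transcription factor of the sebaceous duct, was at 80.1, 86.4 and 51.7 CPM against 3.02, 2.90 and 22.9 CPM (2.87 ± 0.97, adjusted p = 0.049). The groups did not overlap in either gene, but the call of Sostdc1 was lost without Lgr5 GL library a or b and with the GC trend removed, and that of Gata6 was lost without any one library except Lgr5 GL library c. Krt79, the keratin of the infundibulum and duct, was at 2003, 2704 and 2111 CPM against 486, 95.1 and 541 CPM and did not pass (2.60 ± 1.06, adjusted p = 0.10). The stem cell antigen gene Ly6a (2.12 ± 0.83, adjusted p = 0.090) and the defensin gene Defb6 (2.72 ± 1.03, adjusted p = 0.080) did not pass either. Both had passed at 0w, where Ly6a was at 335 ± 126 and 29.9 ± 43.9 CPM and Defb6 at 710 ± 228 and 47.9 ± 39.7 CPM.

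Sebaceous gland and lipid genes split between the populations. Of 19 tested, 3 were called higher in the Lrig1 GL population and 4 in Lgr5 GL cells, beside 6.28% and 5.51% of all genes. The list median was 0.31 at 8w and 0.97 at 0w, when the calls were 5 and 1. Scd1, the stearoyl-CoA desaturase of sebocytes, was at 379, 425 and 416 CPM in Lrig1 GL and at 33.2, 47.4 and 57.6 CPM in Lgr5 GL libraries, 8.77-fold apart (3.13 ± 0.57, adjusted p = 0.00082). Mgst1, a glutathione transferase of the gland, was at 323, 255 and 276 CPM against 106, 37.4 and 53.2 CPM (2.13 ± 0.55, adjusted p = 0.012). The third, Far2, a fatty acyl-CoA reductase, overlapped between the groups. The 4 genes higher in Lgr5 GL cells act in fatty acid synthesis and desaturation rather than in sebocytes alone, and were Fasn, Fads1, Fads2 and Elovl5. Fasn, the fatty acid synthase, was at 44.0, 28.4 and 55.8 CPM against 92.5, 145 and 109 CPM (−1.43 ± 0.41, adjusted p = 0.021). The call of Mgst1 was lost without Lgr5 GL library b, and that of Fasn without Lrig1 GL library a or b or Lgr5 GL library b. Of the 7 calls, only Scd1 and Elovl5 were kept with the GC trend removed, and without Lgr5 GL library b 1 gene was called in the Lrig1 GL direction and 0 in the other.

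Of 22 genes of the hair shaft and inner root sheath 15 could be tested. Krt28, an inner root sheath keratin, was the 1 called, higher in Lgr5 GL cells, and that call was lost with the GC trend removed and without Lrig1 GL library a or c or Lgr5 GL library a or b. Of all genes 5.51% were called higher in Lgr5 GL cells, and the list median was −1.63 at 8w and −0.22 at 0w. Msx2, a homeobox factor of the matrix, was at 8.01, 13.2 and 15.7 CPM in Lrig1 GL and 68.3, 52.6 and 59.8 CPM in Lgr5 GL libraries and did not pass (−2.29 ± 1.01, adjusted p = 0.13). Tchh lay the other way, at 30.8, 13.8 and 87.2 CPM against 7.86, 8.38 and 28.3 CPM. The groups overlapped in Tchh, and it did not pass (1.53, adjusted p = 0.37). Lef1 lay toward Lrig1 GL cells too and did not pass (0.92, adjusted p = 0.68). All other tested members, Krt35, Hoxc13 and Foxn1 among them, lay toward Lgr5 GL cells.

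**Figure D2:**
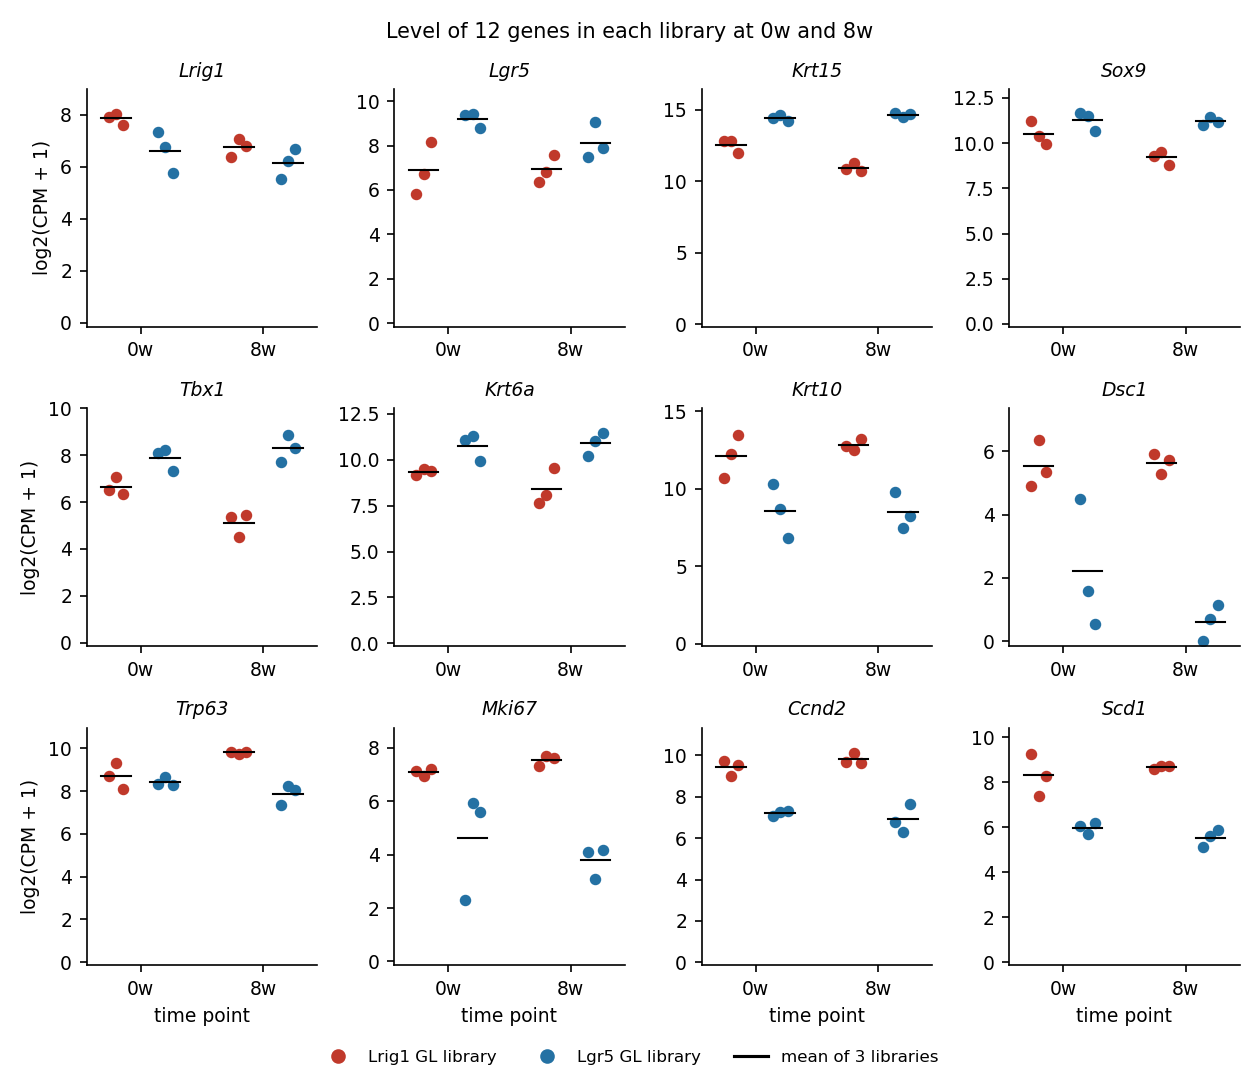
Level of 12 genes in each library at 0w and 8w, as log2(CPM + 1), with Lrig1 GL libraries in red, Lgr5 GL libraries in blue and the mean of 3 libraries as a line. At 8w the groups overlapped for Lrig1 and Lgr5 and did not overlap for the other 10 genes, as for 40.6% of all genes tested and 98.1% of those called; of the 10, Krt15, Sox9, Tbx1 and Krt6a were higher in Lgr5 GL cells.

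Genes of interfollicular differentiation held the highest calls among the identity genes on the Lrig1 GL side. Of 22 tested, 8 were higher in Lrig1 GL cells, 3 were higher in Lgr5 GL cells and 11 did not pass. The shares over all genes were 6.28% higher in Lrig1 GL and 5.51% higher in Lgr5 GL cells. The list median was 1.92 at 8w and 1.02 at 0w, when 5 were called, all higher in Lrig1 GL cells. Of the 8, 6 were kept with the GC trend removed, and of the 3, 1 was. Without Lgr5 GL library b 3 were called in the Lrig1 GL direction, and without any other 1 library up to 7.

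Krt10, the main suprabasal keratin of the epidermis, was at 6870, 5711 and 9598 CPM in Lrig1 GL and at 861, 173 and 306 CPM in Lgr5 GL libraries, 16.6-fold apart (4.05 ± 0.95, adjusted p = 0.0063). Its means at 0w were 5888 ± 4884 and 587 ± 587 CPM, so the populations had differed in the same direction before injury. Dsc1, a desmocollin of the upper epidermal layers, was at 59.3, 38.2 and 51.7 CPM against 0, 0.645 and 1.20 CPM (6.0 ± 1.08, adjusted p = 0.00075), with 0, 2 and 6 counts in the Lgr5 GL libraries. Its partner Dsg1a, a desmoglein, was at 1706, 1138 and 2099 CPM against 259, 294 and 548 CPM (2.17 ± 0.50, adjusted p = 0.0056) and was not called with the GC trend removed. Krt1, the partner of Krt10, Krt2, Krtdap and Casp14 were called in the same direction. Krt36, a keratin of tail scale epidermis, was called at 886, 384 and 0.581 CPM against 0.604, 0.322 and 6.58 CPM, a pair of Lrig1 GL libraries being high and the third at the level of the Lgr5 GL libraries.

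The 3 members higher in Lgr5 GL cells all encode secreted or extracellular proteins of the upper epidermis and the follicle canal. Sbsn, suprabasin, was at 88.5, 71.2 and 88.4 CPM in Lrig1 GL and at 819, 778 and 888 CPM in Lgr5 GL libraries (−3.32 ± 0.61, adjusted p = 0.00082). Dmkn, dermokine, was at 760, 513 and 840 CPM against 2014, 1857 and 1840 CPM (−1.43 ± 0.32, adjusted p = 0.0041). Cdsn, corneodesmosin, was the third, and of the 3 only Sbsn was kept with the GC trend removed. Sbsn, Dmkn and Krtdap are neighbours in 1 locus, and Krtdap differed in the opposite direction, at 1.67 ± 0.49 (adjusted p = 0.025).

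Basal layer and hemidesmosome genes moved in both directions. Of 15 tested, 4 were higher in the Lrig1 GL population and 3 in Lgr5 GL cells, beside 6.28% and 5.51% of all genes, with a median of 0.55 at 8w and −0.56 at 0w. Trp63, the p63 master regulator of stratified epithelia, was at 916, 865 and 910 CPM in Lrig1 GL and at 165, 299 and 265 CPM in Lgr5 GL libraries, 3.69-fold apart (1.88 ± 0.36, adjusted p = 0.0011). Itga6, the integrin α6 of the hemidesmosome, was at 506, 332 and 750 CPM against 125, 173 and 168 CPM (1.77 ± 0.34, adjusted p = 0.0013). Cd44, the hyaluronan receptor, was at 1208, 747 and 1806 CPM against 210, 268 and 624 CPM (1.77 ± 0.36, adjusted p = 0.0020). None of these genes was called at 0w, and all 3 were kept with the GC trend removed, unlike the fourth, Itgb1. That fit also called Krt14, the partner of Krt5, higher in Lrig1 GL cells. In the other direction Krt5, the basal keratin, was at 2329, 2362 and 3642 CPM against 4705, 6890 and 5928 CPM (−1.07 ± 0.23, adjusted p = 0.0028). Plec, the plakin that ties hemidesmosomes to keratin, was at 337, 479 and 447 CPM against 1300.3, 977 and 822 CPM (−1.29 ± 0.26, adjusted p = 0.0020). Once the GC trend was removed the log2 differences of Krt5 and Plec were −0.13 and −0.16, and neither they nor Lamb3, a laminin-332 chain, were called. Krt5 was also lost without Lrig1 GL library a or b or Lgr5 GL library b.

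Proliferation genes were higher in Lrig1 GL cells. Of 30 cell cycle genes tested, 11 were called higher in the Lrig1 GL population and 1 in Lgr5 GL cells, beside 6.28% and 5.51% of all genes, and the median was 1.29 at 8w and 0.93 at 0w, when 3 were called. The 11 held mitotic and S-phase genes (Mki67, Top2a, Ccna2, Ccnb1, Ccnb2, Aurkb, Cenpf, Tpx2, Tyms, Rrm2) and the G1 cyclin gene Ccnd2. The 6 members that encode the MCM replicative helicase did not pass, with log2 differences from −0.93 to 0.82. Of the 12 calls, 8 were kept with the GC trend removed, Cdc20 was called in addition, and 8 to 12 genes were called in the Lrig1 GL direction without one library.

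Mki67, the marker of cycling cells, was at 159, 204 and 193 CPM in Lrig1 GL and at 16.3, 7.42 and 17.1 CPM in Lgr5 GL libraries, 13.6-fold apart (3.76 ± 0.72, adjusted p = 0.0012). At 0w its means were 136 ± 13.2 and 37.5 ± 29.7 CPM, and that difference did not pass (1.86, adjusted p = 0.13). Top2a, the replication-linked topoisomerase, was at 85.7, 189 and 185 CPM against 16.3, 25.8 and 15.1 CPM (3.00 ± 0.59, adjusted p = 0.0016). Ccnd2, cyclin D2 (chr6:127125162-127152193, GRCm38), was at 816, 1106 and 803 CPM against 109, 78.7 and 198 CPM (2.82 ± 0.36, adjusted p = 3.3e-05), 7.05-fold apart, and had been called at 0w too, at 703 ± 166 and 148 ± 12.6 CPM. The groups did not overlap in any of the 3, as in 98.1% of all genes called. Cdkn1a, the p21 inhibitor of cyclin-dependent kinases, was the gene in the other direction, at 182, 138 and 149 CPM against 373, 322 and 370 CPM (−1.18 ± 0.34, adjusted p = 0.023), and was not called with the GC trend removed or without Lrig1 GL library b or c or any one Lgr5 GL library.

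Wound keratins and alarmins held few calls at 8w. Of 23 tested, 2 were called, both higher in Lgr5 GL cells, which is near the 5.51% of all genes called that way, and the median was −0.75 at 8w and −1.58 at 0w. Krt6a, a keratin of the HF companion layer and of wounded epidermis, was at 196, 270 and 756 CPM in Lrig1 GL and at 1191, 2100 and 2787 CPM in Lgr5 GL libraries, 4.98-fold apart (−2.32 ± 0.46, adjusted p = 0.0017), and its means at 0w were 652 ± 67.9 and 1899 ± 827 CPM. Its neighbour Krt6b, a close paralogue whose reads may be shared with it, was at 12.01, 9.89 and 31.4 CPM against 79.2, 128 and 191 CPM (−2.91 ± 0.69, adjusted p = 0.0064). Of these calls Krt6a was kept with the GC trend removed, and in that fit Slc2a1, the glucose transporter GLUT1, was called toward Lrig1 GL cells, at 1.74. As fitted without that correction Slc2a1 did not pass (1.00 ± 0.45, adjusted p = 0.13), at 207, 241 and 418 CPM in Lrig1 GL and 136, 124 and 172 CPM in Lgr5 GL libraries.

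Immediate early genes, which rise within minutes of a stimulus and also during cell isolation, were called 5 times among 24 tested. Jun, Junb, Jund and Ier2 were higher in Lgr5 GL cells and Klf6 in Lrig1 GL cells, beside 5.51% and 6.28% of all genes. The list median was −0.88 at 8w and 0.62 at 0w. Junb, an AP-1 subunit, was at 405, 336 and 320 CPM in Lrig1 GL and at 985, 1145 and 1319 CPM in Lgr5 GL libraries (−1.70 ± 0.41, adjusted p = 0.0070). Ier2 was at 467, 334 and 246 CPM against 956, 882 and 922 CPM (−1.40 ± 0.36, adjusted p = 0.012), and this call was lost without Lrig1 GL library c. The call of Jun was lost without Lrig1 GL library a or c or Lgr5 GL library b. The call of Klf6 was lost without any one library except Lgr5 GL library b. None of the 5 was kept with the GC trend removed, where Junb was at −0.49 and the list median at −0.07. That fit called 3 other members, Fosl2, Klf4 and Hspa1b, all higher in Lrig1 GL cells.

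Genes of 3 signalling pathways gave calls in both directions. Of 24 Wnt pathway genes tested, Wls, the sorting receptor that lets Wnt ligands be secreted, was higher in Lrig1 GL cells, at 619, 718 and 838 CPM against 221, 184 and 267 CPM (1.69 ± 0.39, adjusted p = 0.0058), and the receptor gene Fzd2 was higher in Lgr5 GL cells, at 13.6, 9.89 and 6.39 CPM against 71.9, 42.2 and 89.3 CPM (−2.75 ± 0.74, adjusted p = 0.015). The shares over all genes were 6.28% and 5.51%, so 1 call each way among 24 was near them, and the median of that list was 0.47. Neither gene was kept with the GC trend removed, and Fzd2 was also lost without Lrig1 GL library b or c or Lgr5 GL library c. In the fit without the GC trend 2 other members, Wnt10a and Fzd10, were called higher in Lrig1 GL cells.

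In the BMP and TGF-beta pathway 3 of 27 genes tested were higher in Lgr5 GL and 1 in Lrig1 GL cells. The shares over all genes were 5.51% and 6.28%, and the list median was 0.08. The 3 were Id1, Id2 and Id3, inhibitors of basic helix-loop-helix factors and direct targets of BMP signalling, and the 1 was the receptor gene Bmpr2. Id1 was at 141, 115 and 126 CPM in Lrig1 GL and at 468, 856 and 676 CPM in Lgr5 GL libraries (−2.39 ± 0.43, adjusted p = 0.00078), with means at 0w of 82.3 ± 22.6 and 219 ± 68.7 CPM. Id3 was at 165, 66.6 and 112 CPM against 309, 499 and 581 CPM (−2.01 ± 0.51, adjusted p = 0.011), and Id2 differed by −1.95 ± 0.58 (adjusted p = 0.025). The groups did not overlap in any of the 3 Id genes, as in 98.1% of all genes called. Id1 and Id2 were kept with the GC trend removed, and Id3 and Bmpr2 were not, whereas Id4 was called in that fit, also higher in Lgr5 GL cells. The call of Id3 was lost without Lrig1 GL library b, that of Bmpr2 without library a of either population, and that of Id2 without library b or c of either.

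Of 19 genes of the EGF receptor family, its ligands and feedback regulators, Egfr, Nrg1 and Spred1 were higher in Lrig1 GL and Erbb4 in Lgr5 GL cells. The shares over all genes were 6.28% and 5.51%, and the list median was 0.37. Egfr was at 462, 212 and 442 CPM against 70.1, 196 and 182 CPM (1.31 ± 0.43, adjusted p = 0.043). Its call was lost without any one library except Lrig1 GL library b, as was that of Nrg1, and the call of Spred1 was lost without any one library except Lrig1 GL library a. Erbb4, with 0 counts in the Lrig1 GL and 9, 5 and 4 counts in the Lgr5 GL libraries, was kept with the GC trend removed but lost without any one Lrig1 GL library and without Lgr5 GL library a or b.

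Cytoskeletal and migration genes were mostly higher in Lgr5 GL cells among those called. Of 30 tested, 9 were higher in Lgr5 GL cells and 2, Itgav and Arpc2, in Lrig1 GL cells, beside 5.51% and 6.28% of all genes, with a median of −0.50 at 8w and −0.40 at 0w. Vim, the intermediate filament gene of mesenchymal cells, was at 2.40, 3.96 and 4.07 CPM in Lrig1 GL and at 206, 90.6 and 98.3 CPM in Lgr5 GL libraries (−5.25 ± 0.60, adjusted p = 8.1e-06). Actn1, the actin crosslinker α-actinin 1, was at 50.4, 47.5 and 68.6 CPM against 221, 207 and 244 CPM (−2.01 ± 0.30, adjusted p = 0.00015). Actb, β-actin, was at 2633, 2829 and 2679 CPM against 12983, 5867 and 5646 CPM (−1.59 ± 0.28, adjusted p = 0.00056), and Lgr5 GL library a stood above the rest. Vim, Fn1, Actn1 and Actb were kept with the GC trend removed, whereas Zyx, Flna, Myh9, Actn4, Fscn1 and the 2 genes higher in Lrig1 GL cells were not. Without Lgr5 GL library b no member was called toward Lrig1 GL cells.

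Some markers of mesenchymal cells were higher in Lgr5 GL cells, as Vim and Fn1 were. Summed over the 7 fibroblast markers tested, the level was 261 to 289 CPM in the Lrig1 GL and 484 to 1015 CPM in the Lgr5 GL libraries at 8w, and 216 to 478 against 1251 to 1863 CPM at 0w. Col1a1 and Col1a2, the type I collagen chains that define fibroblasts, were called, the first at 0, 0 and 0.581 CPM against 33.2, 30.3 and 19.5 CPM (−6.90 ± 1.18, adjusted p = 0.00055) and the second at 0.400, 0 and 0 CPM against 65.3, 70.0 and 26.9 CPM. The other 5 fibroblast markers did not pass, among them Sparc, at means of 210 CPM in Lrig1 GL and 404 CPM in Lgr5 GL cells. Of all genes 5.51% were called higher in Lgr5 GL cells. Acta2, smooth muscle actin, was the called member of 3 endothelial and mural markers, at 0.400, 1.32 and 5.23 CPM against 246, 137 and 83.7 CPM (−6.11 ± 1.16, adjusted p = 0.0011). Pecam1 and Emcn did not pass, and Emcn lay the other way, at means of 13.1 CPM in Lrig1 GL and 2.79 CPM in Lgr5 GL cells. These collagen and actin genes were at or under the floor in most Lrig1 GL libraries. All 3 calls were kept with the GC trend removed, and their part in the other genes higher in Lgr5 GL cells was not tested. The 3 immune markers tested summed to 0.400 to 2.64 CPM in Lrig1 GL and 6.45 to 11.96 CPM in Lgr5 GL libraries, and none of them passed, nor did any of the 5 melanocyte or the 4 Merkel cell markers.

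Other lists held few calls, beside 6.28% and 5.51% of all genes called toward Lrig1 GL and Lgr5 GL cells. Of 23 glycolysis and hypoxia genes 1 was called, Aldoa, the glycolytic aldolase, at 123, 170 and 255 CPM in Lrig1 GL and 542, 580 and 599 CPM in Lgr5 GL libraries (−1.65 ± 0.36, adjusted p = 0.0033). Of 27 polycomb and H2A ubiquitin genes, Suz12, a core subunit of the PRC2 methyltransferase, was higher in Lrig1 GL cells, at 156, 173 and 173 CPM against 12.7, 25.5 and 25.7 CPM (2.96 ± 0.65, adjusted p = 0.0038), and Phc2, a PRC1 subunit, was higher in Lgr5 GL cells, at 10.4, 14.5 and 16.3 CPM against 65.9, 72.6 and 149 CPM (−2.81 ± 0.55, adjusted p = 0.0015). The medians of these lists were −0.36 and 0.02, and none of their calls was kept with the GC trend removed. Of 17 interferon and antigen presentation genes 0 passed the quasi-likelihood test and 4 had an unadjusted p under 0.05, and none was called with the GC trend removed, with summed levels of 1214 to 1649 CPM in Lrig1 GL and 1224 to 1504 CPM in Lgr5 GL libraries.

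**Figure D3:**
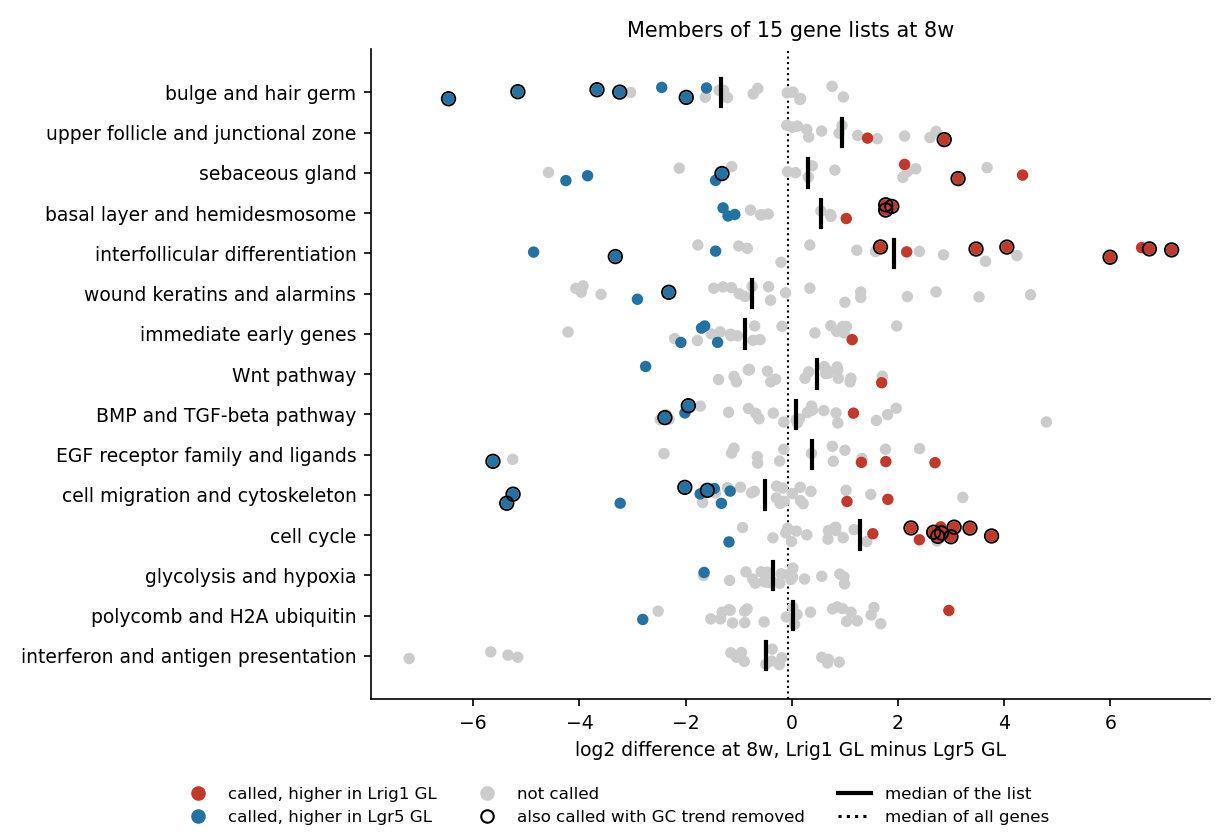
Log2 difference at 8w, Lrig1 GL minus Lgr5 GL, of every tested member of 15 gene lists, with called members in red or blue, a black ring on those also called with the GC trend removed, a bar at each list's median and a dotted line at the median of all genes (−0.08). Calls lie on both sides in 10 of the lists, whereas the 7 calls of the bulge and hair germ list and 11 of the 12 cell cycle calls lie on one side.

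The genes with the smallest p on the Lgr5 GL side were led by Il1rl1, the receptor for IL-33 (chr1:40429570-40465415, GRCm38). It had 0 counts in the 3 Lrig1 GL libraries at 8w and stood at 660, 318 and 189 CPM in the Lgr5 GL libraries, at least 237-fold higher over the floor of 3 counts in each library (adjusted p = 4.7e-08). At 0w it was at 0.147 ± 0.255 and 626 ± 326 CPM, so this difference preceded the injury. Lgals1, galectin-1, was at 2.80, 1.32 and 0 CPM against 959, 554 and 322 CPM (−8.61 ± 1.08, adjusted p = 3.3e-05), and at 0w it was at 2.87 ± 3.55 and 1026 ± 329 CPM. Hspb1, a small heat shock protein, was at 168, 120 and 177 CPM against 907, 993 and 1266 CPM (−2.77 ± 0.40, adjusted p = 1e-04), and Lrrc8a, a subunit of the volume-regulated anion channel, at 39.6, 36.9 and 45.3 CPM against 211, 129 and 176 CPM. The deubiquitinase gene Otub1, the reductase gene Cyb5r3, the scaffold gene Dlgap4 and Mir6236, whose locus is prone to ribosomal RNA reads, completed the 10 together with Vim and Krt15. Of the 10, Cyb5r3 was the 1 lost with the GC trend removed.

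On the Lrig1 GL side the 10 genes with the smallest p were led by Ccnd2. Atp1b3, a sodium pump subunit, was at 2833, 2783 and 2823 CPM in Lrig1 GL and at 667, 1105 and 1097 CPM in Lgr5 GL libraries (1.56 ± 0.22, adjusted p = 9.6e-05) and was called at 0w as well. The RNA-binding protein genes Tra2a, Srsf6 and Rbm39, all regulators of splicing, differed together: Tra2a was at 409, 328 and 285 CPM against 68.3, 57.4 and 49.4 CPM (2.55 ± 0.36, adjusted p = 9.6e-05), and Rbm39 at 1165, 1361 and 1139 CPM against 267, 232 and 305 CPM (2.19 ± 0.31, adjusted p = 1e-04). Neither was called at 0w. Fam213a, a peroxiredoxin-like gene, was at 463, 444 and 362 CPM against 94.3, 62.9 and 49.6 CPM (2.62 ± 0.39, adjusted p = 0.00015) and had been called at 0w at 307 ± 70.1 and 38.7 ± 9.97 CPM. Kif5b, a kinesin heavy chain, Etl4, Cd2ap and Naa15 completed the 10, and Kif5b was the 1 lost with the GC trend removed.

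A further set of genes had no counts at all in one group. Of the 917 genes called higher in Lgr5 GL cells, 63 had 0 counts in all 3 Lrig1 GL libraries at 8w. Of the 1046 called higher in Lrig1 GL cells, 16 had 0 in all 3 Lgr5 GL libraries. The shares over all genes tested were not counted. The mean floor was 1.64 CPM in Lrig1 GL and 1.13 CPM in Lgr5 GL libraries, so these counts cannot be set side by side. The examples given were chosen after their values were seen. Crabp1, a retinoic acid binding protein gene, was at least 36.4-fold and Spp1, osteopontin, at least 10.5-fold higher in Lgr5 GL cells, over the floor in each library. Aadac, an esterase gene of lipid metabolism, was at least 139-fold and Tmem45b at least 24.9-fold higher in Lrig1 GL cells.

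The difference between the populations at 8w followed the GC content of the transcripts. Genes were put into 5 classes of equal size by the GC content of their exons, from 28.3 to 43.4% in the lowest to 54.9 to 78.3% in the highest. The median log2 difference at 8w was 1.35 in the lowest class, then 0.55, −0.12 and −0.69, and −1.04 in the highest, whereas at 0w the medians ran from 0.10 to −0.26. In the lowest class 18.7% of genes were called higher in Lrig1 GL and 0.271% higher in Lgr5 GL cells, and in the highest 0.422% and 12.9%. Across genes, which share libraries and are not independent replicates, Pearson's r between GC content and log2 difference was −0.487 at 8w, −0.0847 at 0w and −0.382 at 1w pw2. The genes called higher in Lrig1 GL cells had a median GC content of 42.4%, those called higher in Lgr5 GL cells 54.5%, and all genes tested 49.1%.

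Gene classes set by abundant transcripts were counted too. Of 20 mitochondrially encoded genes, which are low in GC, 12 were called higher in Lrig1 GL cells, beside 6.28% of all genes. Their median was 1.94 at 8w and 0.07 at 0w. mt-Co1, a cytochrome c oxidase subunit, was at 43818, 23308 and 42758 CPM in Lrig1 GL and at 5949, 4723 and 5483 CPM in Lgr5 GL libraries (2.77 ± 0.52, adjusted p = 0.0010). With the GC trend removed none of the 12 was called by the quasi-likelihood test and the median was 0.17. Of 85 cytoplasmic ribosomal protein genes 3 were higher in the Lrig1 GL population and 2 in Lgr5 GL cells, shares under the 6.28% and 5.51% of all genes, with a median of −0.41 at 8w and 0.44 at 0w. The 3 fell to 0 without Lrig1 GL library a or Lgr5 GL library b, and the 2 to 0 without Lrig1 GL library b or Lgr5 GL library a. With the GC trend removed 1 of the 5 was kept and the median was 0.015. These genes have many processed copies, so their counts are uncertain.

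**Figure D4:**
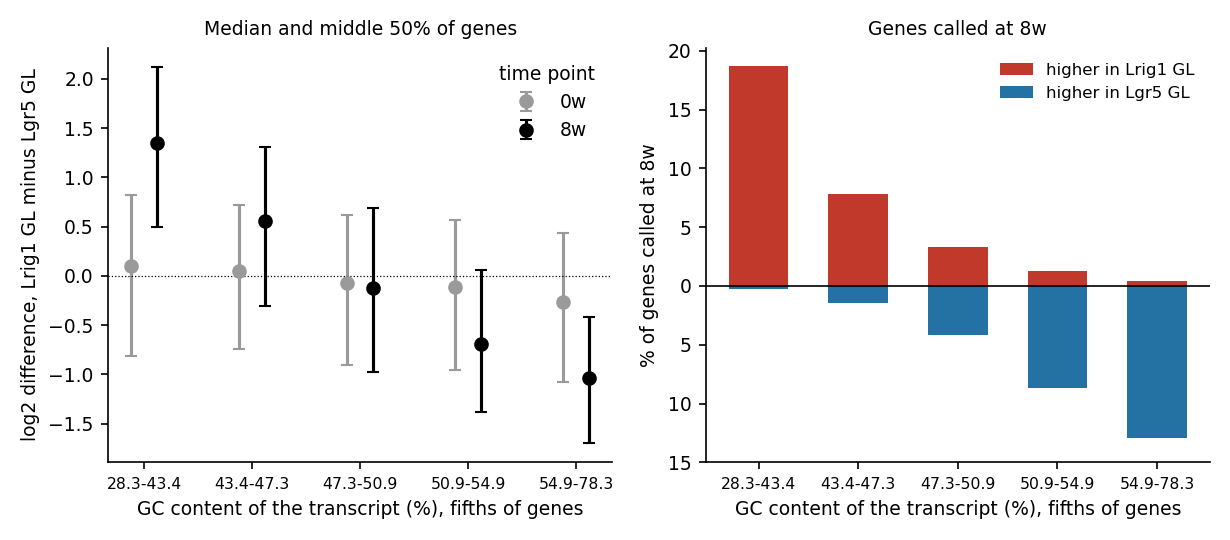
Left, median log2 difference, Lrig1 GL minus Lgr5 GL, of the genes in 5 classes of exon GC content at 0w and 8w, with the middle 50% of genes as lines. Right, percent of the genes of each class called at 8w in each direction; calls toward Lrig1 GL go from 18.7 to 0.422% and calls toward Lgr5 GL from 0.271 to 12.9% as GC content rises.

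The last question was whether the populations differed at 8w in another way than before injury, which was tested as the difference at 8w minus the difference at 0w with the adjusted p alone. This held for 188 genes, 1.13% of those tested, of which 101 shifted toward Lrig1 GL and 87 toward Lgr5 GL cells. The sign of the difference at 0w was opposite to the shift in 95 of the 101 and 79 of the 87. A change of sides is thus common to the genes this test picks. The Lrig1 GL libraries moved more than the Lgr5 GL libraries in 87 of the 101 and 78 of the 87. The share over all genes tested was not counted, so this cannot be read as particular to these genes. In each population on its own, 1052 genes differed between 8w and 0w in Lrig1 GL cells, 557 higher and 495 lower at 8w, and 0 in Lgr5 GL cells by the same quasi-likelihood test, where 760 had an unadjusted p under 0.05. The GC content and mitochondrial share of the counts had shifted mainly in the Lrig1 GL libraries, and these comparisons were not fitted with the GC trend removed. The mice at 8w were also older than those at 0w, with no unwounded group of that age, so wound and age cannot be told apart. Against the mean of the other 5 time points, the difference at 8w stood apart for 80 genes, 0.48%. After removal of the GC trend 13 genes were past the threshold in the comparison with 0w and 10 in that with the mean. The count against 0w was 12 without Lgr5 GL library a, and the count against the mean was 0 without Lrig1 GL library b, where 2236 genes had an unadjusted p under 0.05.

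Maf, a bZIP transcription factor that acts in epidermal differentiation, was at 171 ± 40.5 CPM in Lrig1 GL and 236 ± 114 CPM in Lgr5 GL cells at 0w. At 8w it was at 1049, 597 and 1415 CPM against 82.2, 87.1 and 149 CPM, and its difference shifted by 3.73 ± 0.65 (adjusted p = 0.0065). Matn2, an extracellular matrix protein gene, went from 56.3 ± 31.9 and 226 ± 78.5 CPM to 331, 319 and 259 CPM against 59.8, 54.8 and 122 CPM. The populations thus changed places, as is common in this set, with a shift of 3.95 ± 0.62 (adjusted p = 0.0041). Gorab, a Golgi protein gene, was near 0 in Lrig1 GL cells at 0w and at 25.6, 52.8 and 60.5 CPM at 8w, with 14.5, 12.3 and 4.98 CPM in Lgr5 GL libraries at 8w, and Arid4b, a chromatin protein gene, was the fourth named on this side. Their shifts were 7.51 ± 1.30 and 4.45 ± 0.77 (adjusted p = 0.0065 for both).

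In the other direction Bok, a BCL-2 family member, was at 345 ± 54.9 and 252 ± 46.0 CPM at 0w and at 131, 130 and 114 CPM against 498, 428 and 369 CPM at 8w, a shift of −2.24 ± 0.39 (adjusted p = 0.0065). Tecr, an enzyme of fatty acid elongation, was at 713 ± 148 and 418 ± 80.3 CPM at 0w and at 185, 186 and 211 CPM against 535, 449 and 369 CPM at 8w, a shift of −1.99 ± 0.38 (adjusted p = 0.015). In both genes the Lrig1 GL libraries changed sides, from above the Lgr5 GL mean to below all Lgr5 GL libraries. The same held for Dus1l, a tRNA-modifying enzyme gene, Dad1, a subunit of the oligosaccharyltransferase, and Psmb6, a proteasome subunit gene. These genes were picked by their shift, and the sign at 0w was opposite in 79 of the 87 genes that shifted this way. With the GC trend removed Matn2, Gorab, Arid4b, Maf, Dus1l and Dad1 were kept in this test, and Bok, Psmb6 and Tecr were not.

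**Figure D5:**
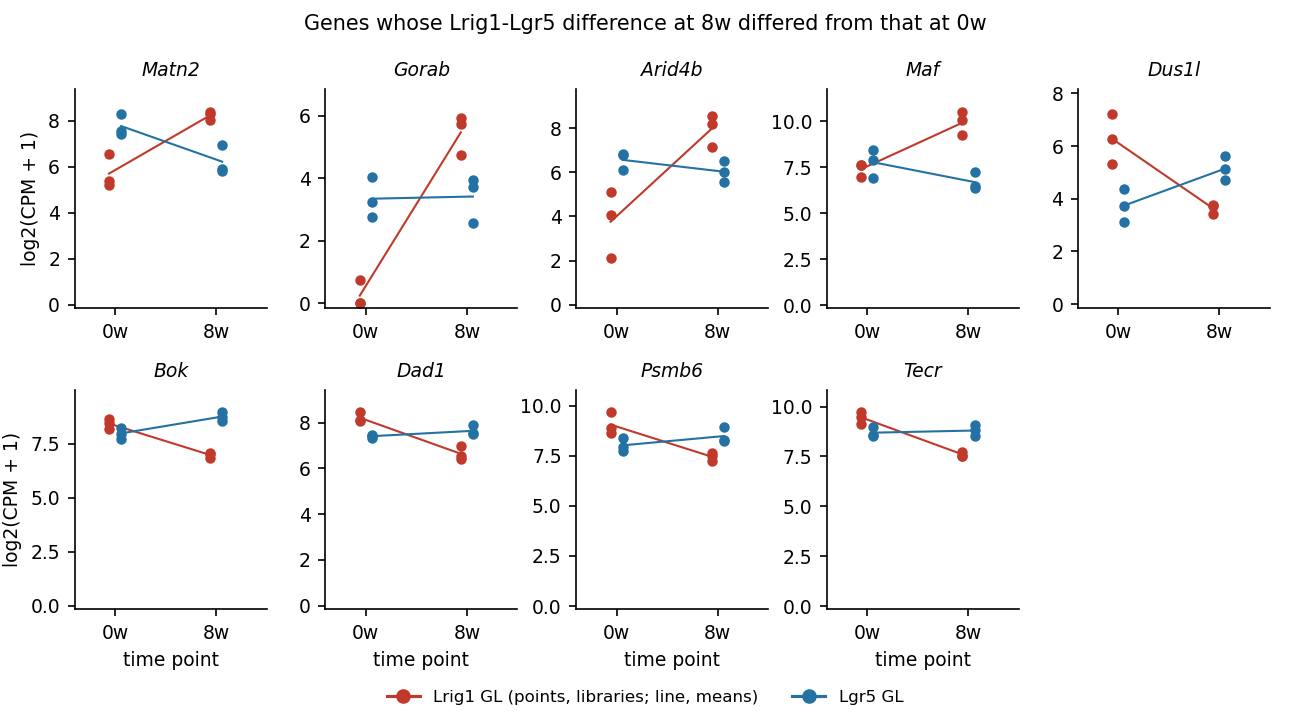
Level of 9 genes, as log2(CPM + 1), in the Lrig1 GL (red) and Lgr5 GL (blue) libraries at 0w and 8w, with points for libraries and lines through the group means. For Matn2, Gorab, Arid4b and Maf the Lrig1 GL mean was below the Lgr5 GL mean at 0w and above it at 8w, and for Dus1l, Bok, Dad1, Psmb6 and Tecr the reverse. The genes were picked by this shift, and the sign at 0w was opposite in 95 of 101 and 79 of 87 genes of the set.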

How the data were processed

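Mini-bulk RNA-seq libraries of sorted tdTomato+ cells were made by a Smart-seq2-based protocol. The authors trimmed reads with Trim Galore, aligned them with HISAT2 to GRCm38, ran featureCounts on exons grouped by gene name, with the annotation of GENCODE release M20, and deposited raw counts in 1 table per population. Both tables lack the genes with few or no counts, so 1316 genes found only in the first and 3722 found only in the second could not be compared.

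The joined counts of all 36 libraries in 12 groups were fitted in R 4.3.3 with edgeR 4.0.16 after TMM scaling, whose factors at 8w were 0.745 to 0.867 in Lrig1 GL and 1.03 to 1.07 in Lgr5 GL cells. The filter was filterByExpr with a minimum of 10 counts and the prior count was 0.125. The quasi-likelihood F-test, with p adjusted by the Benjamini-Hochberg method over all 16652 genes, gave each comparison. Common BCV was 0.681. No exact permutation test of 3 against 3 libraries can give a two-sided p under 0.1. The replicate numbers in the tables do not match the labels at 8w, so libraries were called a, b and c. The labels number the replicates and do not name animals.

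Alternatives used DESeq2 1.42.0, limma 3.58.1, sva 3.50.0, other filters, scalings and sets of libraries, and a trend of log2 counts on exon GC content removed from each library, with GC content and positions from GENCODE M21 on GRCm38. Scripts were tested on simulated counts. Named genes were both drivers, the 10 genes per direction with the smallest adjusted p among those called, with a mean of at least 50 CPM and no overlap between groups, up to 5 per list by p at a mean of at least 10 CPM, and up to 6 per direction by adjusted p for the shift from 0w at a mean of at least 20 CPM. Gm and Rik genes were counted only (2 and 1 in the last set). Further called members of a list are named outside this rule, after their values were seen. The comparison, the 27 lists and their members were chosen with earlier results of these data known.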

Additional observations from a re-analysis of the deposited data

Results flagged for a closer look

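The difference between Lrig1 GL and Lgr5 GL cells at 8w differed from that at 0w for 188 genes by the interaction term of the quasi-likelihood test. The named ones, as the shift in the log2 difference toward Lrig1 GL cells, were Matn2 at 3.95, Gorab at 7.51, Arid4b at 4.45 and Maf at 3.73, and, away from them, Dus1l at −4.37, Bok at −2.24, Dad1 at −1.82, Psmb6 at −2.15 and Tecr at −1.99. Of the 101 genes that shifted toward Lrig1 GL cells the median GC content was 41.4%, and of the 87 that shifted the other way 54.4%. The part of GC content in these shifts beyond the fit with its trend removed was not tested.

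Genes listed in 1 table only lie outside the comparison. Sv2b, a synaptic vesicle protein gene, is listed in the Lgr5 GL table and not in the Lrig1 GL table, and had 1624, 1903 and 2271 counts in the Lgr5 GL libraries at 8w. It was the highest of the 44 genes with at least 10 counts in all 3 of these libraries and no entry in the other table. Gm12415, which was removed before scaling, reached 30.1% of the counts in an Lgr5 GL library at 8w.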

How the results depend on the processing

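The count of 1963 genes at 8w stayed within 1.5 times under 11 of 15 alternatives. It was 3813 with limma-voom, 545 with the GC trend of each library removed, 3033 with only the 6 libraries at 8w and 1247 with only the 12 libraries at 8w and 0w, and 873 to 1373 without 1 library at 8w. With DESeq2's size factors the split was 1180 to 817 in place of 1046 to 917.

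The count of 188 genes against 0w became 123 without a filter, 701 with the likelihood ratio test, 883 with DESeq2, 13 with 2 surrogate variables, 13 with the GC trend removed and 62 with only the 12 libraries at 8w and 0w, and 12 to 342 without 1 library. DESeq2's size factors moved the median of all genes by 0.104 in that comparison and split 169 calls into 118 and 51, against 101 and 87. The count of 80 genes against the mean of the other 5 time points became 473 with the likelihood ratio test, 706 with DESeq2, 912 with limma-voom, 10 with the GC trend removed and 0 with 2 surrogate variables, where 1982 genes had an unadjusted p under 0.05, and 0 to 250 without 1 library. The causes were not tested.

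The replicate block, by the number in the column names, gave 1786 genes at 8w, 57 against 0w and 51 against the mean. The numbers 2 and 4 are shared at 8w, and the correlations of the deviations of same-numbered libraries were −0.00345 and 0.00287. Those of differently numbered libraries ran from −0.00748 to 0.0111. Whether same-numbered libraries shared a day or a preparation was not tested.

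Of the 82 named genes called at 8w, 60 were called without each of the 6 libraries in turn, 45 with the GC trend removed and 69 with 2 surrogate variables. With the GC trend removed mt-Rnr2 went from 1.68 to −0.046, and 3 genes that did not pass changed sign: Foxn1 went to 0.012, Pkm to 0.10 and Usp16 to −0.56. Depth limits genes near 1 or 2 CPM, where 3 counts lie, and 3 libraries a group limit every value.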

Other observations

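Xist, the RNA that coats the inactive X chromosome in female cells, was at 5788, 3479 and 6201 CPM in the Lrig1 GL and at 261, 529 and 498 CPM in the Lgr5 GL libraries at 8w, 12-fold apart (3.58 ± 0.74, edgeR's quasi-likelihood test, adjusted p = 0.0024), and was called with the GC trend removed too. At 0w it was at 1142 ± 1272 and 403 ± 75.9 CPM (SD, n = 3). The Y-linked genes Ddx3y, Eif2s3y, Kdm5d and Uty were not named in both tables and could not be compared. The sex of the mouse behind each library was not used here, and its part in the other differences was not tested.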
